A study of Mus musculus with 20 samples.

Results

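The Th2 cytokine genes Il4, Il5 and Il13 and 3 genes that mark or regulate Th2 cells, Gata3, Ptgdr2 and Epas1, were followed through 20 RNA-seq libraries of mouse CD4 T cells. These 6 genes were found by symbol among the 39179 gene IDs of the count tables, and each symbol matched 1 ID. The study compared wild-type cells with cells lacking Il6ra, the membrane receptor subunit that binds IL-6, in 9 groups. The aim in its title is to learn whether IL-6 acting through this receptor keeps a Th17 response going in the animal.

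All donors were C57BL/6 mice. In the transfer experiments, wild-type CD45.1 and Il6ra-/- CD45.2 CD4 T cells, both with the IL-17F/Thy1.1 reporter, grew under Th17 conditions for 6 days with irradiated splenic antigen-presenting cells, anti-CD3, anti-IFN-g and anti-IL-4. Hyper-IL-6 was given at 20 ng/ml and TGF-b at 2.5 ng/ml. Hyper-IL-6 is IL-6 joined to the soluble receptor, which can act on cells without membrane Il6ra. Cells positive for the Thy1.1 reporter were sorted (2 libraries a genotype) and both genotypes were transferred together into Rag1-/- mice, hosts that lack lymphocytes with rearranged receptors. After 4 weeks, live CD4+ TCRb+ colon cells were split by CD45 allele, without the reporter gate (3 libraries a genotype). The colon libraries are labelled as pools of recipient mice, and where no label says that libraries came from separate animals, p-values measure only the spread between these libraries. In the culture experiments, naive T cells from spleen and lymph nodes grew for 6 days with TGF-b at 2.5 ng/ml and either IL-6 at 20 ng/ml (wild type) or hyper-IL-6 at 63 ng/ml, labelled HDS (wild type and IL6Ra-/-). Uncultured naive cells of both genotypes served as controls. Each of these 5 groups had 2 libraries, and per the labels all 10, naive ones included, were stimulated for 4 h (PMA, ionomycin) before RNA was taken.

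Th2 cells are the helper T cells of responses to worms and allergens. GATA3 is their lineage transcription factor, and it binds the locus that holds Il4, Il13 and Il5 next to Rad50. IL-4 drives further Th2 differentiation through IL-4R and STAT6 and acts on B cells, IL-5 acts on eosinophils, and IL-13 acts on epithelium and smooth muscle. Ptgdr2 encodes CRTH2, the receptor by which prostaglandin D2 attracts Th2 cells, type 2 innate lymphoid cells, eosinophils and basophils. Epas1 encodes HIF-2a, an oxygen-regulated transcription factor. GATA3 is also present in naive CD4 T cells and in a colon subset of regulatory T cells, so its transcript alone does not mark a Th2 cell.

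In GRCm38, the cytokine genes lie within one stretch of chromosome 11. Il4 is on the minus strand (chr11:53602982-53618669), Il13 on the minus strand (chr11:53631324-53634702) and Il5 on the plus strand (chr11:53720794-53725106). Gata3 is on chr2:9857078-9890034, Ptgdr2 on chr19:10937160-10942511 and Epas1 on chr17:86753700-86833410. The RefSeq promoter table (GRCm38.p6) matched 5 of the 6 genes, all but Epas1. The 250 bases before the transcription start of the 3 cytokine genes are printed because these genes lie near each other but had different levels in the libraries below. Il4 has 2 starts in the table and the farther upstream one is shown. Each line is 5′ to 3′ on the gene's own strand and ends at the base before the start. Capitals mark a GATA motif on either strand, spelled as AGATAA or as AGATAG, and likewise with a first T as TGATAA or as TGATAG.
Il4 promoter, chr11:53618666-53618915, minus strand: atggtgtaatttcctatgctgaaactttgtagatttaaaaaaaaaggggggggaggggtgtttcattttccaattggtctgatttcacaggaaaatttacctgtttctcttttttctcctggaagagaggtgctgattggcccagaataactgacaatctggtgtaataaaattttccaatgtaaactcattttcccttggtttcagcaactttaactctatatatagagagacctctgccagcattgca
Il13 promoter, chr11:53634703-53634952, minus strand: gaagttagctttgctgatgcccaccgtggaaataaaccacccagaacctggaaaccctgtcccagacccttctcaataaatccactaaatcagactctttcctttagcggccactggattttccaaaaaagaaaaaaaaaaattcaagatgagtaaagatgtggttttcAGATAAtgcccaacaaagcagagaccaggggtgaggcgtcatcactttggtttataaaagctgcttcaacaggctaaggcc
Il5 promoter, chr11:53720544-53720793, plus strand: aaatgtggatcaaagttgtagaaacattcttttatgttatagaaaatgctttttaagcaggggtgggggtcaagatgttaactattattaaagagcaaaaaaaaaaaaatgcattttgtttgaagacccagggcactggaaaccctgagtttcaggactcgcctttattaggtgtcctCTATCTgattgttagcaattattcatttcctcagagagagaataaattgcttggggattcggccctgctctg
A GATA match began 81 bases before the Il13 start and 72 bases before the Il5 start, where it lay on the opposite strand, and the shown Il4 window held none. The window of the other Il4 start had 1 match. Of 32851 promoter windows of this length, 26.5% held at least 1. The core that NFAT binds, GGAAA on either strand, occurred 5 times in the shown Il4 window, 4 times in that of Il13 and 2 times in that of Il5, with no overlap with a GATA match. It was present in 55.6% of all windows. A match says only that these letters are there.

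Library totals ranged from 12718633 to 23745060 reads in genes in the transfer experiments and from 20160774 to 46848016 in the culture experiments. Levels are given as TMM-scaled CPM (counts scaled to library size), and the reads behind them are given for the cytokine genes and Ptgdr2, which had few. T cell markers were above 1 CPM on average in every group, all 9 of 9. Il6ra was counted in the deficient libraries too, at 80.6 and 123 CPM before transfer and 32.3 and 31.8 CPM in culture. The labels do not say which part of the gene is deleted, so these counts do not check the genotype labels. 2 wild-type libraries stood apart in composition, number 1 before transfer with 3.12% of reads in ribosomal protein genes (1.12% to 1.46% in the other before-transfer libraries) and colon number 2 with 4.28% in mitochondrial genes (1.83% to 2.27% in the other colon libraries). Values without both follow where they changed a direction. The colon libraries also held markers of other cells: the summed level of 12 epithelial markers was 180 to 761 CPM against 33.9 to 116 CPM before transfer, and that of 12 myeloid markers 145 to 387 against 17.5 to 69.0 CPM. In bulk libraries, fewer cells of a type and less RNA per cell cannot be told apart.

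In the colon, Il4 was the Th2 cytokine whose libraries separated by genotype. Its level was 2.66, 2.63 and 2.26 CPM in the deficient libraries numbered 0, 1 and 2 (46, 32 and 33 reads). In the wild-type libraries of the same numbers it was 0.633, 0.178 and 0 CPM (9, 4 and 0 reads). All 3 deficient libraries lay above all 3 wild-type ones, and the reads summed to a ratio of 9.91 (95% exact interval 5.56 to 19.2, counting error only). The log2 fold change in edgeR's quasi-likelihood test was 3.22 ± 0.92 (approximate SE, from the F statistic). The unadjusted p was 0.00502 and the Benjamini-Hochberg adjusted p 0.455. This did not pass the threshold of 0.05 over all genes, although DESeq2 on the same libraries gave an adjusted p of 0.0387. On simulated counts with the colon design, DESeq2 made 28 false calls and edgeR 4. DESeq2 recovered 37% of 2-fold and 91% of 8-fold changes there, and edgeR 10% and 82%. With same-numbered libraries of a stage paired, the edgeR value was 3.43 ± 0.84 with an adjusted p of 0.178. The difference stood in both experiments, at 1.48 in experiment 1 (number 0) and 2.32 in experiment 2 (numbers 1 and 2) on the log2(CPM + 0.5) scale.

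Il13, the neighbour of Il4, had no such separation. It was at 0.809, 2.55 and 2.67 CPM in the deficient and 0.844, 2.40 and 2.98 CPM in the wild-type colon libraries (12 to 54 reads). The genotypes overlapped, and in both of them the library of experiment 1 was the low one. The log2 fold change was -0.06 ± 0.74 (edgeR adjusted p = 1), and within experiments it was -0.04 in each, on the log2(CPM + 0.5) scale. The sign turned without deficient library 0 (0.33) and without wild-type library 1 (0.07) or 2 (0.28).

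Il5 had at most 7 reads in any library. In the deficient colon it was at 0.405, 0.0823 and 0.274 CPM (7, 1 and 4 reads), in the wild-type colon at 0.0703, 0.178 and 0 CPM (1, 4 and 0 reads). It did not pass the low-count filter. An exact two-sided permutation test of the 6 colon values gave p = 0.2, where 0.1 is the smallest that 3 against 3 allows. The values were regrouped freely, without regard to pairs or experiments. A difference in Il5 was not detectable at this depth.

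The same Il4 reads can be set against those of Il13 and Il5 within a library, which is another view of the Il4 difference and not further support for it. Il4 made up 68.7% (95% Wilson interval 56.8 to 78.5), 50% (38.1 to 61.9) and 43.4% (32.9 to 54.6) of the Il4, Il5 and Il13 reads in the deficient libraries 0, 1 and 2. In the wild-type libraries the share was 40.9% (23.3 to 61.3), 6.45% (2.54 to 15.4) and 0% (0 to 8.2). All deficient shares were above all wild-type shares. The exact two-sided permutation test gave p = 0.1, the smallest that 3 against 3 allows when libraries are regrouped freely. Pairs and experiments were not taken into account. Within each genotype, the library of experiment 1 had the highest share. Per kilobase of exon, Il13 exceeded Il4 in all 3 wild-type libraries (0.70, 1.99 and 2.47 against 0.516, 0.145 and 0 RPKM). In the deficient libraries, Il4 was above Il13 in number 0 (2.17 against 0.671 RPKM) near it in number 1 (2.15 against 2.12 RPKM) and below it in number 2 (1.84 against 2.22 RPKM).

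**Figure D1:**
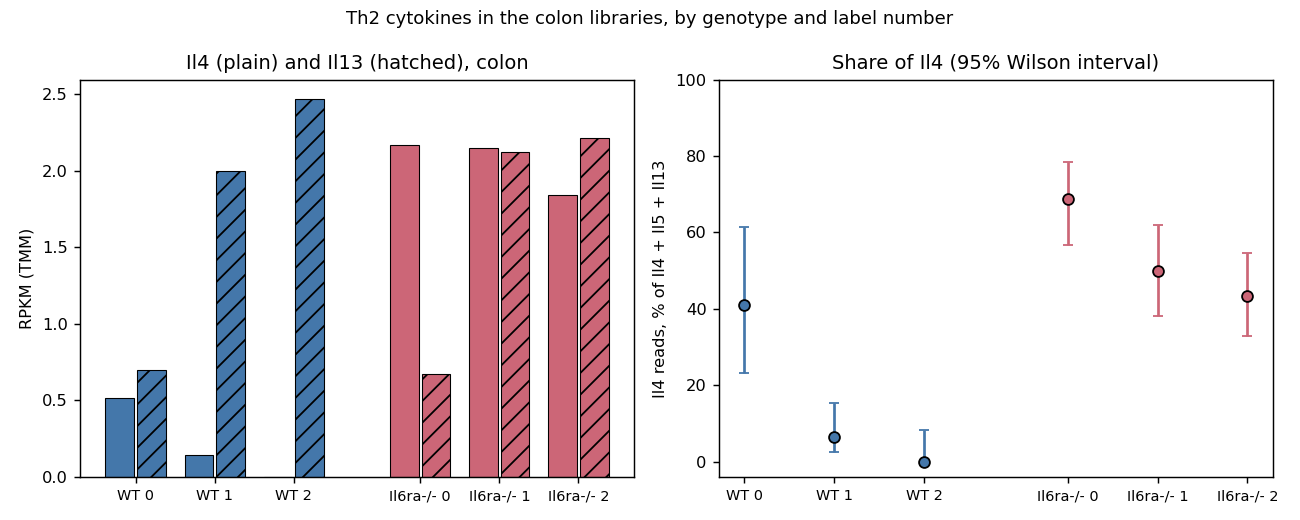
Left: RPKM of Il4 (plain bars) and Il13 (hatched bars) in each colon library, blue for wild type and red for Il6ra-/-; right: share of Il4 among the Il4, Il5 and Il13 reads of each library with its 95% Wilson interval. Il4 shares run from 43.4% to 68.7% in the deficient libraries and from 0% to 40.9% in the wild type, while Il13 is low in library 0 of both genotypes.

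Gata3, the lineage factor, was far more abundant than the cytokines and its colon ranges overlapped between genotypes. It was at 151, 123 and 95.5 CPM in the deficient and 131, 102 and 101 CPM in the wild-type libraries. Deficient library 0 was the highest and deficient library 2 the lowest of the 6, with a log2 fold change of 0.15 ± 0.30 (edgeR adjusted p = 1; 0.20 within experiment 1 and 0.11 within experiment 2). Without deficient library 0 the value was -0.02.

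Ptgdr2 followed Il4 in direction, with 58 of its 72 deficient reads in 1 library. It was at 3.35, 0.576 and 0.479 CPM in the deficient libraries (58, 7 and 7 reads) and at 0.352, 0.0445 and 0 CPM in the wild type (5, 1 and 0 reads). The groups did not overlap, and deficient library 0 stood far above the rest. The edgeR log2 fold change was 3.52 ± 1.23 (adjusted p = 0.809; 0.149 with pairs), and the difference was 2.18 in experiment 1 and 0.98 in experiment 2 on the log2(CPM + 0.5) scale. Library 0 of the deficient group was also highest in the regulatory T cell gene Foxp3 (88.9 CPM against 35.7 and 43.7 in the other deficient and 19.3 to 23.7 in the wild-type colon libraries). It was highest too in Klrg1, a gene of effector T cells and innate lymphoid cells (47.6 against 15.3 and 17.9, and 5.98 to 11.0 CPM). The 8 regulatory T cell markers had a median log2 fold change of 0.46 between genotypes, with 0 of 8 past the test. Their summed level overlapped (1946 to 2808 deficient, 1691 to 3188 CPM wild type). In this sum library 0 was the lowest of its genotype, at 1946 CPM (deficient) and 1691 CPM (wild type). It was also the lowest in the summed 8 genes of type 2 innate lymphoid cells, at 727 CPM (deficient) and 593 CPM (wild type). Foxp3 and Klrg1 are small parts of these sums, so the sums cannot show whether other genes of the lists ran with them. Within the deficient genotype, Il17rb of the innate lymphoid list was also highest in library 0 (11.4 against 7.00 and 7.53 CPM). Il1rl1 of that list was lowest there (120 against 209 and 146 CPM). The part of regulatory T cells and innate lymphoid cells in the Ptgdr2 value was not tested. Ptgdr2 passed the low-count filter only through 2 deficient colon libraries.

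Epas1 was at 53.5, 57.8 and 42.7 CPM in the deficient and 31.1, 41.8 and 44.9 CPM in the wild-type colon. The groups overlapped by 1 pair of values, and the log2 fold change was 0.39 ± 0.39 (edgeR adjusted p = 1; 0.77 within experiment 1 and 0.21 within experiment 2).

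In all, 0 of the 5 tested members passed in the colon by edgeR, where 0.155% of 14225 genes did. At an unadjusted p under 0.05 there were 2, Il4 and Ptgdr2, and 648 of all 14225 genes. DESeq2 called 1 member, Il4, and 133 of all genes. The groups did not overlap for Il4 and Ptgdr2, as for 15.8% of all genes tested. Ptgdr2 entered the test only through 2 deficient colon libraries, where it was high. Counts that include it are therefore not read against the share of all genes. The median log2 fold change of the 5 tested members was 0.39, and over all genes it was 3.92e-05. For the cells that could bring in these transcripts otherwise, 13 markers of mast cells, basophils and eosinophils summed to 24.6 to 34.7 CPM in the deficient and 23.9 to 30.4 CPM in the wild-type colon. Mcpt8, Fcer1a and Prg2 were at 0 in all 3 deficient libraries. Mcpt4, Mcpt8, Ms4a2 and Epx were at 0 in all 3 wild-type ones, and Mcpt4, Ms4a2 and Epx had 1 read each in the deficient colon. In each colon group, 2 of the 13 averaged 1 CPM or more, and 0 of 4 tested passed between genotypes. Over the transfer, 1 of these 4 rose in the wild type and 2 in deficient cells, Mcpt1 in both, and 1 fell in each. Mcpt1 was at 0 before transfer in both genotypes and could only rise. The summed level of 8 genes of type 2 innate lymphoid cells also overlapped (727 to 902 against 593 to 922 CPM), but the median log2 fold change of the 7 tested was 0.65, with 1 higher (Il1rl1) and 2 with pairs. The part of these cells in the values of the members was not tested.

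Il1rl1, the IL-33 receptor of Th2 cells, colon regulatory T cells and innate lymphoid cells, was the 1 of 22 tested genes of a Th2-associated list to pass in the colon. It read 120, 209 and 146 CPM in the deficient and 4.71, 8.59 and 13.2 CPM in the wild-type libraries, with a log2 fold change of 4.16 ± 0.43 (edgeR adjusted p = 0.00851). The list's median log2 fold change was 0, against 3.92e-05 over all genes. With pairs, Il17rb, a receptor subunit for IL-25, joined it (8.64 ± 2.39 against 1.71 ± 0.49 CPM, n = 3 a group, edgeR adjusted p = 0.0895 without and 0.0387 with pairs). From 8 genes that restrain the Th2 programme, 9 neighbours of the cytokine genes on chromosome 11, 8 partners of Epas1 in oxygen sensing and 2 tested prostaglandin D2 genes, 0 passed, with medians of 0.03, -0.59, -0.03 and -0.12. Ptgdr and Ptgds of that last list did not reach the filter.

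**Figure D2:**
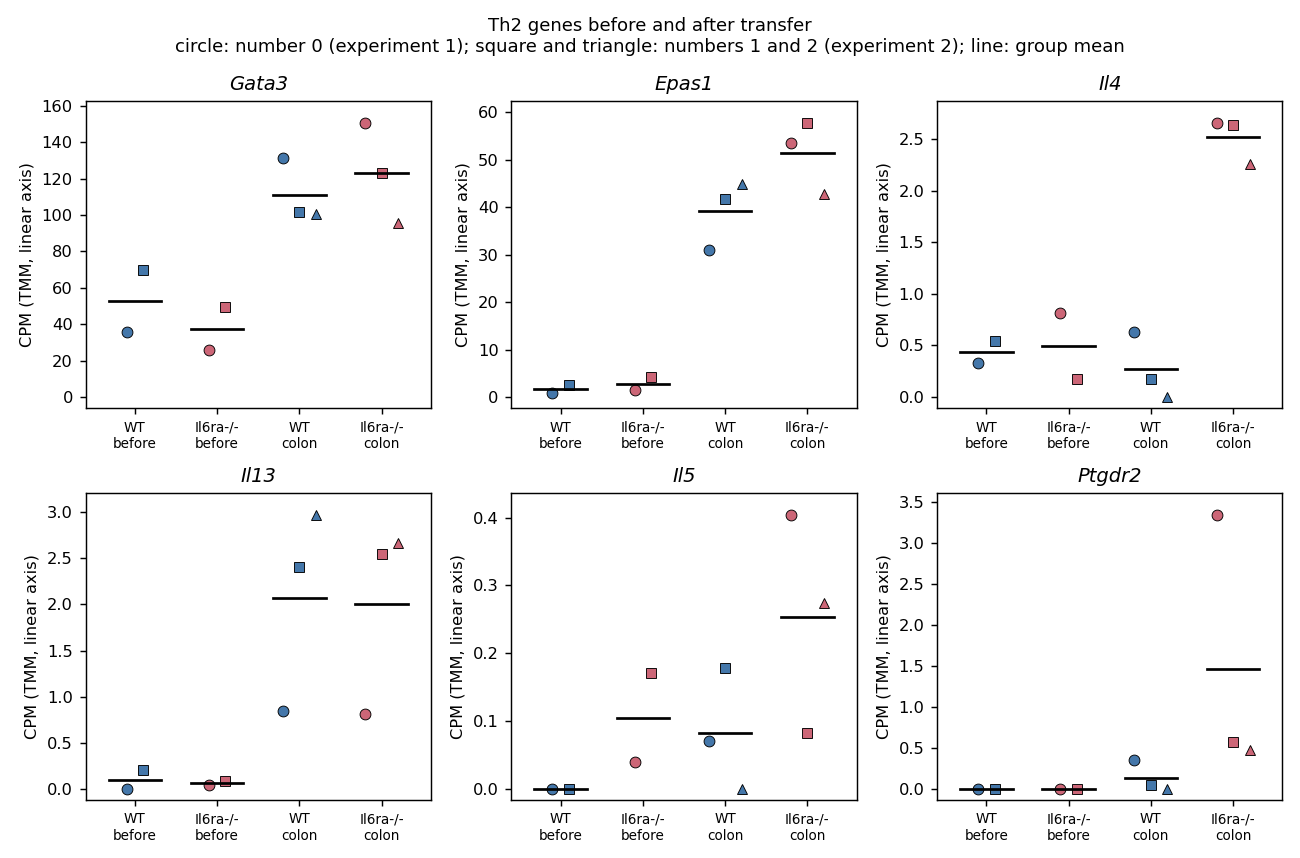
CPM of the 6 genes in each transfer library on linear axes that differ between panels; symbols give the number in the label, colours the genotype and lines the group means. Gata3, Epas1 and Il13 are higher in the colon in both genotypes, Il4 is at 2.26 CPM or more in the 3 deficient colon libraries, and Ptgdr2 is at 0 in all 4 libraries before transfer.

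Before transfer, after culture with anti-IL-4, no tested member passed between genotypes. Gata3 was at 25.7 and 49.5 CPM in the deficient and 35.9 and 69.8 CPM in the wild type, lower in the deficient library of each number, with a log2 fold change of -0.49 ± 0.38 (edgeR adjusted p = 0.982). Il4 was at 0.816 and 0.171 against 0.329 and 0.545 CPM and Epas1 at 1.36 and 4.27 against 0.892 and 2.53 CPM. Il13 had at most 4 reads, Il5 5 reads over both deficient libraries and 0 in the wild type, and Ptgdr2 0 reads in all 4 libraries, which allows up to 0.061 CPM (deficient) and 0.0723 CPM (wild type) at 3 counts over the group. In edgeR, 0 of 5 members passed, with 0.00703% of all genes called. At an unadjusted p under 0.05 there were 0 members and 345 of 14225 genes, and DESeq2 called 0 members and 26 genes. Il5 was the 1 member whose groups did not overlap, as did 16.4% of the genes tested.

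The change from culture to colon was the larger difference for most members. In wild-type cells, Gata3, Il13 and Epas1 rose, 3 of 5 tested members, where 17.1% of all genes were called higher (32.9% in either direction). In deficient cells 4 rose, Gata3, Il13, Epas1 and Ptgdr2, where 13.8% were called higher (27% in either direction). Il13 and Ptgdr2 passed the low-count filter only through colon libraries, where they were high, so these counts are not read against the share of all genes. Comparisons of genotypes and of stages share libraries, so their values are not independent. The stages also differ in the gate, since cells before transfer were sorted for the IL-17F reporter and colon cells were not. Passage through the animal and the gate cannot be told apart. Of 7 tested markers of type 2 innate lymphoid cells, 6 rose in the wild type and 5 in deficient cells. None fell, and the median log2 fold changes were 6.42 and 3.66. The part of these cells in the stage differences of the members was not tested.

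Epas1 had the clearest rise. In the wild type it went from 0.892 and 2.53 CPM to 31.1, 41.8 and 44.9 CPM, a log2 fold change of 4.52 ± 0.56 (edgeR adjusted p = 0.000224). In the deficient cells it went from 1.36 and 4.27 CPM to 53.5, 57.8 and 42.7 CPM, 4.19 ± 0.54 (edgeR adjusted p = 0.000294). The lowest colon library, at 31.1 CPM, lay far above the highest library before transfer, at 4.27 CPM. Epas1 is abundant in endothelium, and Cdh5 and Kdr, endothelial genes, also rose, 2 of the 5 tested of 8 endothelial markers, from at most 0.141 CPM before transfer to 0.684 to 3.32 CPM for Cdh5 and 0.462 to 2.31 CPM for Kdr in the colon. Emcn, Tie1 and Tek, of the same list, were at 0 in both wild-type libraries before transfer and reached at most 1.20 CPM in a colon library. The summed endothelial list, most of it Pecam1, which T cells also carry, was 114 to 157 CPM in the colon and 127 to 148 CPM before. The colon cells were sorted as live CD4+ TCRb+, and the part of endothelial RNA in the Epas1 value was not tested. Partners of Epas1 went the other way: of 8 tested, 0 rose, and 5 fell in the wild type and 4 in the deficient cells (4 and 3 with the replicate block), where 2249 and 1874 of 14225 genes fell, with medians of -1.17 and -0.92 against -0.02 and -0.00216 over all genes. Egln3, a prolyl hydroxylase that marks HIF proteins for destruction and is itself a HIF target, fell from 537 ± 16.8 to 38.2 ± 2.86 CPM in the wild type (n = 2 and 3, edgeR adjusted p = 7.37e-06). Egln1, another of these hydroxylases, fell from 400 ± 34.8 to 107 ± 7.21 CPM.

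Il13 rose from 0 and 0.198 CPM to 0.844, 2.40 and 2.98 CPM in the wild type, 4.32 ± 1.10 on the log2 scale (edgeR adjusted p = 0.0131). In deficient cells it rose from 0.0388 and 0.0854 CPM to 0.809, 2.55 and 2.67 CPM, 4.88 ± 1.15 (edgeR adjusted p = 0.00997). No colon library overlapped a library before transfer, but the earlier groups held 4 and 3 reads in all, so the summed ratios were wide: 22.1 (8.39 to 82.5) and 31.2 (10.3 to 155). Il13 entered the test only through its colon libraries. In deficient cells its call was lost without before-transfer library 0 (edgeR adjusted p = 0.0819) or library 1 (0.0503).

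Gata3 rose in the wild type, with a log2 fold change of 1.07 ± 0.35 (edgeR adjusted p = 0.039), and rose by 1.71 ± 0.36 in deficient cells (edgeR adjusted p = 0.0059). All colon libraries were at 95.5 CPM or more and all earlier ones at 69.8 CPM or less. The wild-type call was narrow: edgeR's adjusted p went to 0.16 without wild-type before-transfer library 0 (log2 fold change 0.69), to 0.0927, 0.0661 and 0.0665 without wild-type colon library 0, 1 or 2, to 0.0583 without deficient colon library 1, and to 0.0503 with only the compared groups fitted. In deficient cells it was lost without before-transfer library 0 (edgeR adjusted p = 0.0554).

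Ptgdr2 went from 0 in both deficient libraries to 3.35, 0.576 and 0.479 CPM, at least 26.8-fold higher against a floor of 3 counts over the group (edgeR adjusted p = 0.0227), and the call was lost without before-transfer library 0 (edgeR adjusted p = 0.107) or 1 (0.0936). In the wild type, 6 colon reads against 0 did not pass. Il4 read 0.816 and 0.171 CPM before and 2.66, 2.63 and 2.26 CPM after transfer in deficient cells, with no overlap and a log2 fold change of 2.33 ± 0.98 (edgeR adjusted p = 0.105). It passed with DESeq2 (adjusted p = 0.0444), in edgeR with an experiment term (0.0477) and with the compared groups alone (0.0416). In wild-type cells the value for Il4 was -0.71 ± 1.02 (edgeR adjusted p = 0.613). The test of the difference between the 2 changes of Il4 gave 3.04 ± 1.40 (unadjusted p = 0.0528, edgeR adjusted p = 0.953). In that test of genotype by stage, 0 members and 0 of 14225 genes passed (0%), with 377 genes and 0 members at an unadjusted p under 0.05, and DESeq2 also called 0 members. Groups did not overlap between stages for 3 members in the wild type and 5 in deficient cells, against 55% and 59.1% of all genes. These counts include members that entered the test only through colon libraries and are not read against those shares.

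**Figure D3:**
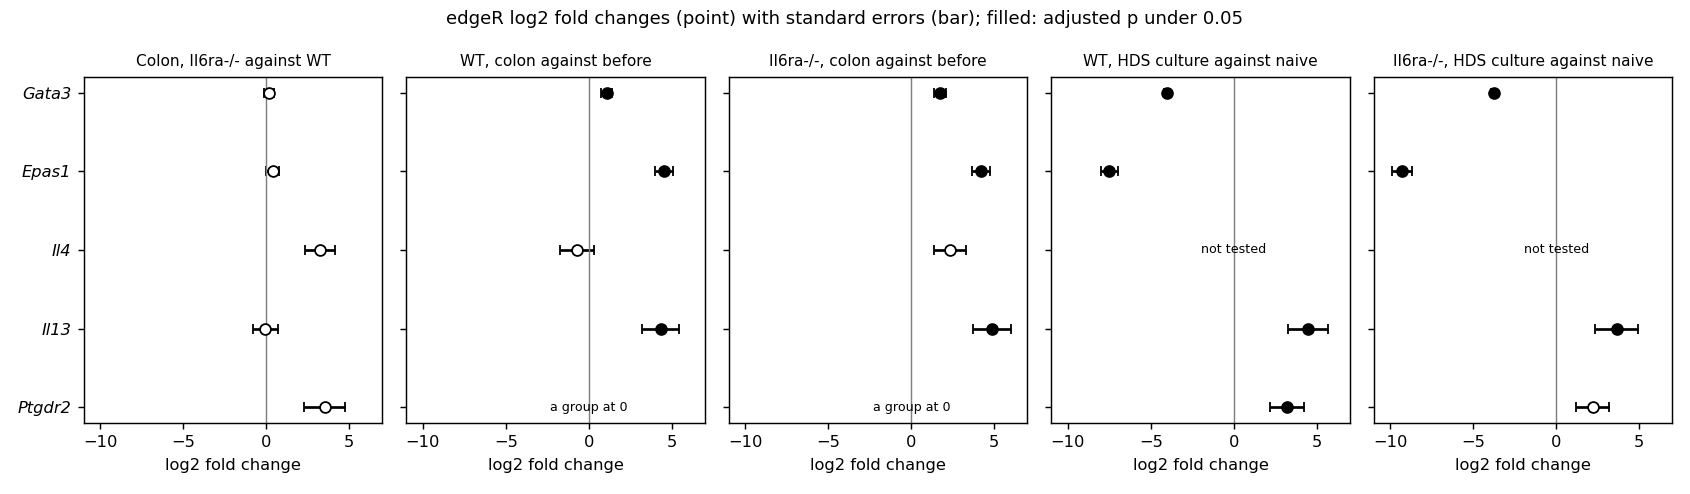
edgeR log2 fold changes (points) with approximate standard errors (bars) of the 5 members tested at least once, in 5 comparisons. Filled points passed at an adjusted p under 0.05, and Ptgdr2 is left out across stages because a group is at 0. In the colon 0 points between genotypes are filled, while Gata3, Epas1 and Il13 are filled for colon against before transfer in both genotypes and Gata3 (-4.01 and -3.76) and Epas1 (-7.50 and -9.32) are filled for cultured against naive cells.

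Other Th2-associated genes moved both ways over the transfer. In wild-type cells, 7 of 22 tested genes rose and 6 fell, and in deficient cells 8 rose and 6 fell, with medians of -0.26 and -0.43. Il1rl1 rose from at most 0.155 CPM in any library before transfer to 8.84 ± 4.26 CPM (wild type) and 158 ± 45.5 CPM (deficient, n = 3 each). Areg, the epithelial growth factor amphiregulin, rose from 1.58 ± 0.62 to 20.3 ± 13.6 CPM in the wild type and from 1.37 ± 0.25 to 11.5 ± 3.48 CPM in deficient cells. Hpgds, a prostaglandin D2 synthase, rose to 6.22 ± 2.12 and 6.15 ± 1.70 CPM from 0.481 ± 0.0498 and 0.701 ± 0.277 CPM. Il3, a growth factor for mast cells and basophils, fell from 1.64 ± 0.21 and 0.379 ± 0.23 CPM to 0 in all colon libraries. Ptgs2, the inducible cyclooxygenase, rose in both, to 21.9 ± 10.2 and 19.0 ± 11.3 CPM.

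Of the 8 genes that restrain the Th2 programme, 3 rose and 4 fell in the wild type and 3 rose and 3 fell in deficient cells (medians -0.23 and -0.10). Tbx21, the Th1 factor T-bet, rose from 3.43 ± 2.26 to 85.3 ± 6.94 CPM and from 3.39 ± 3.11 to 151 ± 22.0 CPM. Eomes, its relative, rose from 1.10 ± 0.23 to 41.4 ± 22.8 CPM and from 0.839 ± 0.14 to 20.7 ± 3.98 CPM. Zbtb32, a repressor that binds GATA3, fell from 23.5 ± 4.00 to 1.11 ± 0.13 CPM and from 16.2 ± 0.55 to 1.45 ± 0.42 CPM. Among the 9 neighbours of the cytokine genes, 5 rose and 1 fell in the wild type and 2 rose and 2 fell in deficient cells (medians 1.07 and 0.43). Irf1, on the far side of Il5, rose from 85.5 ± 9.78 to 325 ± 22.6 CPM in the wild type, and Rad50, between Il13 and Il5, did not pass in either genotype.

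In culture, Gata3 and Epas1 were high in naive cells and low after the Th17 culture. Gata3 was at 85.4 and 85.1 CPM in wild-type and 102 and 90.4 CPM in deficient naive cells. It was at 5.34 and 7.86 CPM with IL-6, and with hyper-IL-6 at 4.74 and 5.82 CPM (wild type) and 7.16 and 7.03 CPM (deficient). Naive and cultured libraries lay far apart, and the fall with hyper-IL-6 came to -4.01 ± 0.18 (edgeR adjusted p = 9.2e-09) and -3.76 ± 0.17 (edgeR adjusted p = 1.21e-08). Epas1 was at 28.4 and 35.8 CPM in wild-type and 27.0 and 30.6 CPM in deficient naive cells, and at 0.333 CPM or less in all 6 cultured libraries. Its log2 fold change was -7.50 ± 0.50 (edgeR adjusted p = 2.07e-07) in the wild type. In deficient cells 3 reads in culture stood against 1306 in naive cells, a 702-fold fall (240 to 3411, counting error only).

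Il13 and Ptgdr2 went the other way, from almost no reads. Il13 had 1 read over both naive libraries of each genotype. With hyper-IL-6 it was at 0.595 and 0.580 CPM in the wild type (47 reads, ratio 25.9, 4.43 to 1045) and 0.363 and 0.272 CPM in deficient cells (23 reads, ratio 14.3, 2.32 to 587). Both rises passed, at edgeR adjusted p = 0.00644 and 0.0249, the latter lost without deficient hyper-IL-6 library 1 (0.0755) or naive library 1 (0.116) or 2 (0.0555). Ptgdr2 was at 0.381 and 0.527 CPM in wild-type hyper-IL-6 cultures and 0.0489 and 0.0424 CPM in naive cells (36 against 2 reads, ratio 9.92, 2.55 to 85.1). This passed at edgeR adjusted p = 0.018, and was lost without wild-type hyper-IL-6 library 2 (0.0733) or wild-type naive library 1 (0.0664) or 2 (0.0828). In deficient cells, at 0.224 and 0.436 against 0.155 and 0 CPM, it did not pass (edgeR adjusted p = 0.0707), but did without naive library 1 (0.0143). The 3' end of Ptgdr2 overlaps Ccdc86 on the opposite strand (chr19:10941481-10949266), which was at 82.8 to 94.3 CPM in all cultured and 16.7 to 19.2 CPM in naive libraries. The part of Ccdc86 reads in the Ptgdr2 count was not tested. Before transfer, Ccdc86 was at 9.70 to 24.2 CPM where Ptgdr2 had 0 reads.

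In this comparison with naive cells 2 members rose and 2 fell in the wild type, and 1 rose and 2 fell in deficient cells, where 70.3% and 72% of 14926 genes were called (36.8% higher and 33.5% lower in the wild type, 37.5% and 34.4% in deficient cells). Groups did not overlap for 5 members in each genotype, against 84.8% and 86.6% of all genes. Il13 and Ptgdr2 passed the culture filter through the cultured libraries alone, so these counts are not read against the share of all genes. Il4 and Il5 did not enter the test in culture. Il4 had 0 to 7 reads and Il5 0 or 1 in each of the 10 libraries, and Il5 had 0 in all 4 naive ones. Ligand and genotype made no call. Between hyper-IL-6 and IL-6, between genotypes with hyper-IL-6 and between naive genotypes, 0 of 4 tested members passed edgeR or DESeq2, where 0%, 0% and 0.0067% of all genes passed edgeR. At an unadjusted p under 0.05 there were 226, 351 and 1554 genes, of the members only Gata3 between genotypes with hyper-IL-6 (0.43 ± 0.18, unadjusted p = 0.0354). Its groups did not overlap there, nor did those of Il13, while 31.2% of all genes did not. Epas1 differed by -1.98 ± 1.19 between genotypes with hyper-IL-6, on 3 against 14 reads, 1 of the wild-type libraries being at 0. Between ligands all members overlapped (26.8% of all genes did not). Between naive genotypes, Gata3 and Il4 were the 2 members without overlap (37.5% of all genes), at 0.18 ± 0.15 for Gata3 and with 8 wild-type Il4 reads against 0. The genotype-by-culture test called 0 members and 0% of genes, with 1267 genes and 0 members at an unadjusted p under 0.05 and 0 members by DESeq2.

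**Figure D4:**
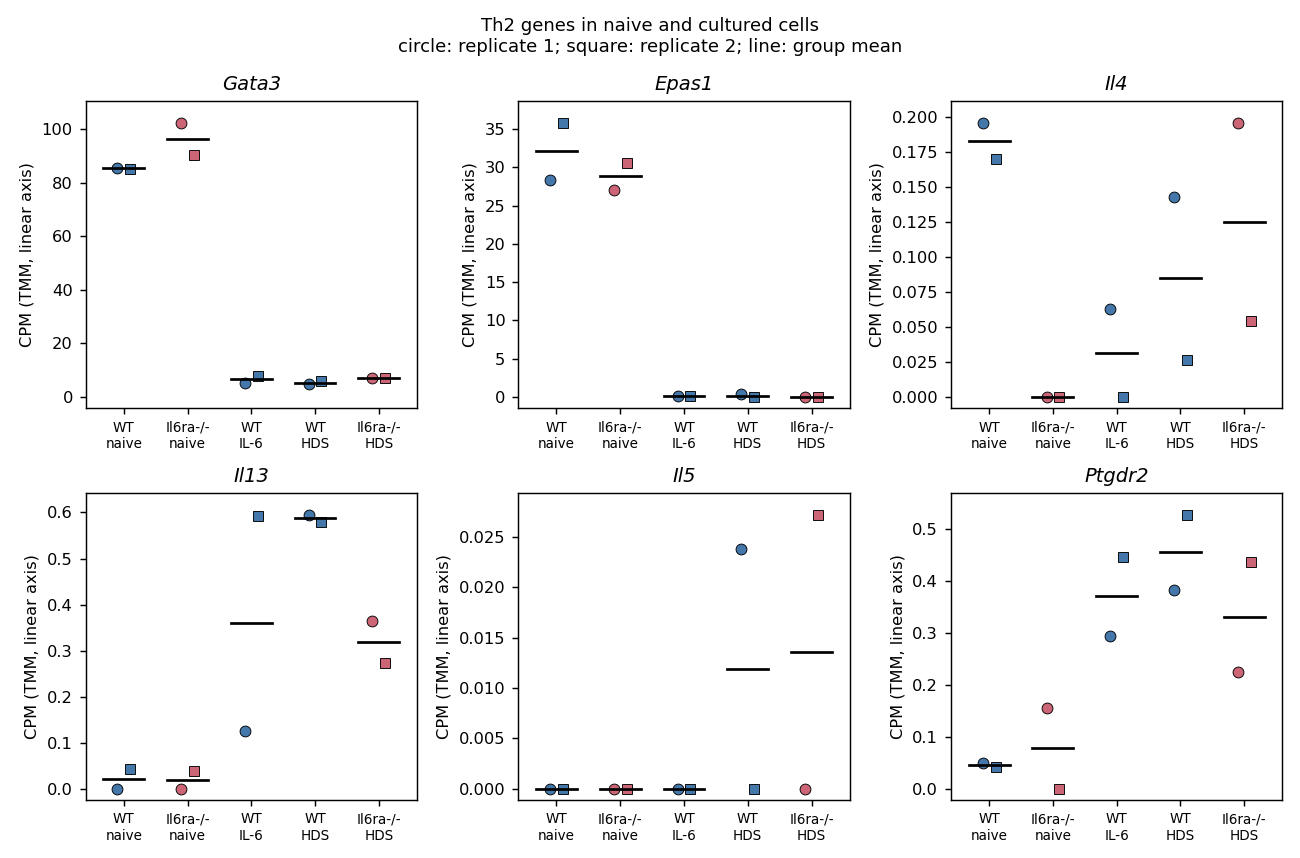
CPM of the 6 genes in each culture library on linear axes that differ between panels; circles are replicate 1 and squares replicate 2, colours the genotype and lines the group means. Gata3 and Epas1 sit at 85.1 to 102 and 27.0 to 35.8 CPM in naive cells and at 7.86 CPM or less after culture, while Il13 and Ptgdr2 stay at 0.595 CPM or less everywhere.

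Of 23 tested Th2-associated genes, 13 rose and 6 fell from naive to wild-type hyper-IL-6 cells, and 14 rose and 6 fell in deficient cells. The medians were 3.25 and 3.01, and 0.04 over all genes. Pparg was at 0 in every naive library, so it entered the test only through cultured libraries and could only rise. The list medians are therefore not read against that of all genes. Cysltr1, a leukotriene receptor, went from 0.0244 ± 0.035 to 37.1 ± 4.89 CPM in the wild type. Il9, a cytokine of mast cell responses, was at 0 in naive and 0.934 ± 0.24 CPM in wild-type hyper-IL-6 cells, and Areg went from 0.0424 ± 0.060 to 11.8 ± 0.12 CPM. Il17rb fell from 4.43 ± 0.45 to 0.0489 ± 0.032 CPM (each n = 2). Of the partners of Epas1, 4 of 8 rose and 2 fell in the wild type, and 4 rose and 3 fell in deficient cells (medians 0.33 and 0.26). Hif1a, the sister factor of Epas1, rose from 126 ± 10.1 to 894 ± 7.34 CPM in the wild type while Epas1 fell, and Egln3 rose from 2.04 ± 0.40 to 264 ± 14.7 CPM.

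Ordered by mean level in the transfer experiments, Gata3, Epas1, Il13 and Ptgdr2 had both colon groups on top. For Gata3 and Epas1 the colon genotypes overlapped, as did the genotypes before transfer, with a gap between the stages. Il4 had the deficient colon at 2.52 ± 0.22 CPM above the rest, and the other 3 groups (0.493 ± 0.46, 0.437 ± 0.15 and 0.270 ± 0.33 CPM) overlapped. Per kilobase, Gata3 was the most abundant member in every group. In the culture experiments it ran from 1.33 ± 0.19 RPKM in wild-type hyper-IL-6 cells to 24.2 ± 2.12 RPKM in deficient naive cells. In the transfer experiments, scaled apart, it ran from 9.44 ± 4.23 RPKM in deficient cells before transfer to 30.9 ± 6.94 RPKM in the deficient colon. Epas1 reached 9.18 ± 1.39 RPKM there, above Il4 at 2.05 ± 0.18 and Il13 at 1.67 ± 0.86 RPKM.

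Over the 6 colon libraries, the genes whose log2 CPM ran most like each member, among 9785 with a mean log2 CPM of at least 2, were picked by Pearson's r. For Il4 these were Prag1 (r = 0.997), Clec2i (0.993) and Pelo (0.990). Prag1 read 27.7, 28.5 and 25.2 CPM in the deficient and 10.3, 5.03 and 4.50 CPM in the wild-type libraries. Il13 ran with Dusp1, Pnrc1 and Tnfaip3 (each r = 0.996), inducible genes that were low in library 0 of both genotypes. Tnfaip3 was at 1210, 3417 and 3677 CPM in the deficient and 1314, 3527 and 3787 CPM in the wild type. For Gata3 they were Itga6, Vps45 and Zfp26 (0.987 to 0.993), for Ptgdr2 Tmed8, Psen2 and Ahnak (0.991 to 0.994), and for Epas1 Arfgef2 and Tbc1d9b (0.988 to 0.991). With 6 libraries that share genotype, experiment and depth, and the best 3 picked of 9785, these values are a description.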

How the data were processed

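The deposited files hold raw read counts per gene, 1 file a library, per the labels' protocols and the file headers' gene IDs. The submitters' processing notes name HTSeq 0.7.2 and STAR 2.5.3, then R 3.4.3 with DESeq2 1.18.1, besides SAMtools 0.1.18 and the build GRCm38. The library kit kept strand, and the deposited files carry the word reverse in their names, but no source used here states the strand setting or the annotation release, so reads of overlapping and antisense genes cannot be told apart with certainty. The 5 HTSeq summary lines were left out, and 37693 of 39179 IDs matched a GENCODE M21 symbol (1486 did not).

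Counts were tested with edgeR 4.0.16 (R 4.3.3, quasi-likelihood, TMM, filterByExpr, group as the only term) over all genes, with Benjamini-Hochberg adjustment at 0.05. The 10 transfer and 10 culture libraries were fitted apart, and levels were not compared across them. The fits used 14225 and 14926 genes and gave 11 comparisons. CPM and RPKM were computed from the counts with exon lengths of GENCODE M21, and SD is between libraries. The SE of an edgeR log2 fold change is its absolute value divided by the square root of the F statistic. It is approximate, above all where a group has few reads. Intervals at 95% and floors of 3 counts cover counting error only. On simulated counts with the colon design, edgeR recovered 10% of genes changed 2-fold and 82% of those changed 8-fold, among 14225 genes. DESeq2 recovered 37% and 91%, with 28 false calls against 4 for edgeR. Apart from the changed genes, the simulated counts held no difference between groups, unlike the libraries.

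Same-numbered libraries of a stage deviated together over genes (r = 0.646, 0.303 and 0.156 in the colon and 0.401 before transfer), but not across stages (-0.187 to 0.142), and the labels tie numbers to experiments. The blocked fit within a stage was therefore given beside the results it bears on. Alternatives were DESeq2 1.42.0, its size factors (RLE), no filter, a filter at 1 CPM, the compared groups alone, a replicate block, a term for the experiment, and the removal of each library in turn. The block within a stage and the removal of both libraries that stood apart were added after seeing the data. The 6 members and the gene lists were chosen with earlier results of these data known. All members were named, with the list genes that passed or changed most and the 3 genes most like each member, of which 1 is not reported here.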

Additional observations from a re-analysis of the deposited data

Results flagged for a closer look

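Il4 reads in culture, against naive cells, differed in opposite directions in the 2 genotypes. In Il6ra-deficient cells it went from 0 reads in both naive libraries to 7 and 2 reads with hyper-IL-6, a mean of 0.125 CPM. In wild-type cells it had 4 reads in each naive library, a mean of 0.182 CPM, and 6 and 1 reads with hyper-IL-6, a mean of 0.0846 CPM. Every deficient culture was above, and every wild-type culture below, the naive libraries of its genotype in CPM, but the wild-type ratio of 0.482 had an interval of 0.149 to 1.52 (95%, counting error only), which includes no change. This difference was not tested, because Il4 did not pass the low-count filter, and no library held more than 7 reads.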

How the results depend on the processing

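The count of members called moved by over 1.5 times in 3 cases with all libraries: DESeq2 called 1 in the colon, and the filter at 1 CPM gave 2 for colon against before transfer in deficient cells and 2 for hyper-IL-6 against naive in the wild type. Leaving out 1 library gave 1 to 4 for the former. Smaller shifts were 5 for the former with DESeq2 or the experiment term, 2 for colon against before transfer in the wild type and 2 for hyper-IL-6 against naive in deficient cells, each with the filter at 1 CPM or the compared groups alone. The replicate block changed no member's call but turned Il4 before transfer to -0.054, as did the experiment term (-0.10). Without both libraries that stood apart, log2 values turned for Il13 in the colon (0.28), Gata3 (0.056) and Il13 (3.38) before transfer, Il4 across stages in the wild type (0.19) and Il13 in the genotype-by-stage test (-3.10). None of these had passed. With 1 library left out, values crossed 0 between genotypes in the colon for Gata3 (-0.025 to 0.30) and Il13 (-0.42 to 0.33), and before transfer for Gata3 (-1.03 to 0.059), Il4 (-1.30 to 0.90), Il13 (-1.57 to 3.34) and Epas1 (-0.32 to 1.64). They did so by stage and genotype for Il13 (-3.41 to 1.49) and Epas1 (-1.27 to 0.71), between ligands for Il13 (-0.012 to 2.18) and Epas1 (-4.69 to 1.71), and between genotypes for Epas1 with hyper-IL-6 (-2.90 to 3.51), in naive cells (-0.31 to 0.022) and by culture (-2.74 to 3.66). Where an arm had 1 library, it was assumed to vary like the other groups. The causes were not tested. Over all genes, the colon count of 22 was 94 with pairs, 133 with DESeq2, 120 with no filter, 108 with the compared groups alone, and 0 without wild-type library 1 or 2. Few reads limit Il4, Il5, Il13 and Ptgdr2.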
